A study of Mus musculus with 12 samples.

Results

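The 7 genes encoding fibrillar collagens followed here in *Prdm6* del/del yolk sacs were *Col1a1*, *Col1a2*, *Col2a1*, *Col3a1*, *Col5a1*, *Col5a2* and *Col11a1*. They were chosen by name, with earlier results of these data known. All 16 probes annotated to these 7 genes among the 20794 probes of the array were kept and reported separately. The RNA of 6 del/del yolk sacs at E10.5 was hybridised against a single wild type pool, itself made from 6 yolk sacs, on 12 cDNA arrays with 2 channels each. The del allele lacks exon 3 of *Prdm6*, a PR domain zinc finger gene, and was made in E14K embryonic stem cells and deleted in the germ line by a CMV-Cre strain, so that every cell of the del/del conceptuses carried the deletion. The del/del RNA was labelled with Cy5 on 5 arrays and with Cy3 on 5 arrays, and the labels of replicates 8 and 9 give the same dye for both channels. Each value is a deposited log2 ratio of 1 probe on 1 array, and neither its scale nor its direction is given with the values. Both were taken from the fold values printed in the study's heat plot: the array means yield these if each value is a base 2 logarithm with del/del on top and wild type below, so that a value below 0 is a lower signal in del/del. All 9 probes of red cell marker genes averaged below 0, and the median of these probes lay below 0 on each array, whichever dye the del/del RNA carried.

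Fibrillar collagens are long helical proteins that cells secrete as procollagens. Outside the cell their end pieces are cut off, and the trimmed molecules line up side by side into the fibrils that give tissues their tensile strength. The yolk sac at midgestation consists of an inner visceral endoderm and an outer mesodermal layer that holds blood islands, vessels and mesothelium. *Col1a1* and *Col1a2* encode the chains of type I collagen, the main fibril of most connective tissues, and *Col3a1* encodes type III collagen of distensible tissues such as vessel walls. *Col5a1* and *Col5a2* encode chains of type V collagen, which starts and limits the width of type I fibrils. *Col2a1* encodes type II collagen, the main fibril of cartilage, and *Col11a1* encodes a chain of type XI collagen, which plays the corresponding part in type II fibrils.

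Promoter sequences from RefSeq (GRCm38.p6) matched 4 of the 7 genes, *Col3a1*, *Col5a1*, *Col11a1* and *Col1a2*. They are shown because the first 3 of these genes had a probe past the threshold below and *Col1a2* had none. Each is the 120 bases before the annotated start on the + strand, at chr1:45311418-45311537 (*Col3a1*), chr2:27886305-27886424 (*Col5a1*), chr3:114030420-114030539 (*Col11a1*) and chr6:4505498-4505617 (*Col1a2*). Capitals mark CCAAT, on either strand, and TATAAA.
Col3a1: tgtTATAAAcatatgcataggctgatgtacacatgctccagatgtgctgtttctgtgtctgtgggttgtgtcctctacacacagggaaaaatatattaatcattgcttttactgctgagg
Col5a1: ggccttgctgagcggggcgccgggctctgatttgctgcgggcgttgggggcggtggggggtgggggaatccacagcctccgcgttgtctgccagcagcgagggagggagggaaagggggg
Col11a1: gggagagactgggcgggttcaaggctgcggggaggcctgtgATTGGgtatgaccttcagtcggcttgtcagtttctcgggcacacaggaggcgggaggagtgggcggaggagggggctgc
Col1a2: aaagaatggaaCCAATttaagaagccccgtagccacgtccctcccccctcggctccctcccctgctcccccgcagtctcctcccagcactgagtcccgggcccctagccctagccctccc

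The 4 promoters differed from each other in base composition. Over the 250 bases before the start, GC content was 35.2% for *Col3a1*, 62.0% for *Col1a2*, 62.4% for *Col11a1* and 76.4% for *Col5a1*, against a median of 52.4% over all promoters. A set of 5 motifs were searched on both strands of the same 250 bases. CCAAT, which the factor NF-Y binds, lay in *Col1a2* at 109 to 105 bases and in *Col11a1*, on the - strand, at 79 to 75 bases before the start, and 33.8% of all 32851 promoters hold it. TATAAA lay in *Col3a1* at 117 to 112 bases before the start and is held by 12.4% of promoters. GGGCGG, a core of Sp1 sites, was present in 2 copies each in *Col5a1*, *Col11a1* and *Col1a2* and is held by 32.7%. *Col3a1* held 4 copies of CANNTG (held by 66.2%), and 2 copies of AACAAT (held by 9.42%) that overlap each other and 1 of the CANNTG copies. Of the 5 motifs, 0 were shared by the 3 genes with a probe past the threshold.

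Most fibrillar collagen probes were lower in del/del than in the wild type pool. The mean log2 ratio lay below 0 for 15 of 16 probes, against 51.1% of all probes tested, and the median of the 16 means was -0.46, against -0.00 over all probes. A probe was taken as changed at a Benjamini-Hochberg adjusted p under 0.05 from limma with a change over 1.3-fold (0.38 on the log2 scale). By this rule 7 of the 16 probes, from 6 of the 7 genes, fell, and 0 rose. Of all 20516 probes tested, 0.907% fell and 0.166% rose. The 12 arrays were dye-flip pairs of 6 yolk sacs and entered singly, and when each presumed pair of consecutive arrays was averaged, 2 of the 16 probes, from *Col3a1* and *Col11a1*, fell, against 0.513% of all probes. At an unadjusted p under 0.05 and over 1.3-fold, 10 of the 16 probes were lower and 0 higher, where 1.95% of all probes were lower. *Col1a2* was the gene with no probe past the threshold, and the other 9 probes included at least 1 from every gene with several probes. The 7 lower probes lay between 43.3% and 74.2% of wild type (median 70.4%).

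**Figure D1:**
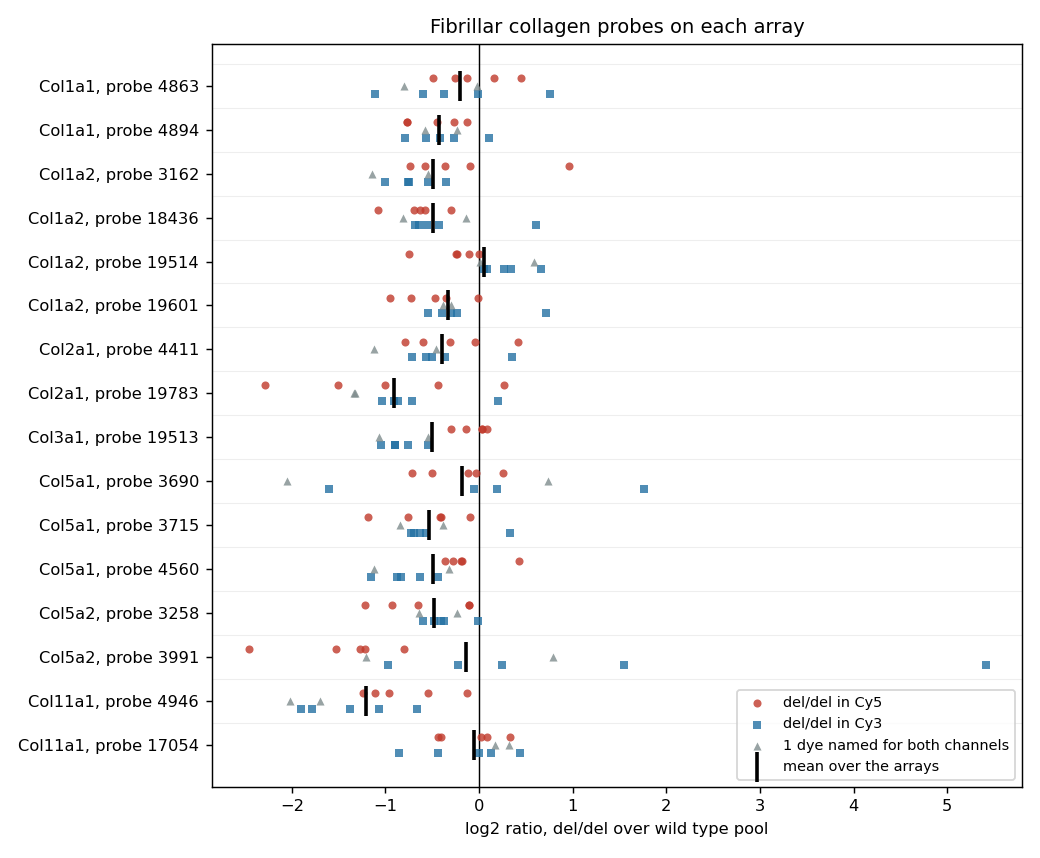
Log2 ratio of del/del over the wild type pool (horizontal axis) for each of the 16 fibrillar collagen probes (rows). Each symbol is 1 array, coloured by the dye of the del/del RNA, and the black bar is the mean over the arrays. The points of *Col11a1* probe 4946 and *Col5a2* probe 3258 lie below 0 on all 12 arrays, and *Col5a2* probe 3991 has 1 value of 5.41.

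The largest decrease was in *Col11a1*. Its probe 4946 had log2 ratios of -1.24, -1.38, -0.55, -0.66, -0.96, -1.90, -1.12, -2.02, -1.70, -1.79, -0.13 and -1.07 on replicates 1 to 12. All 12 values lay below 0, the one nearest to 0 on replicate 11. The mean was -1.21 (SD 0.58, n = 12 arrays, 95% confidence interval -1.53 to -0.89), which is 43.3% of wild type, with an adjusted p of 0.000800 from limma. This probe ranked 125 from the lowest among all probes tested. *Col11a1* was also among the genes shown in the study's heat plot of these same arrays, so its selection there is not independent of this value. The other probe of the gene, 17054, had values of -0.86 to 0.44 (median 0.05), lay above 0 on 7 of 12 arrays and averaged -0.06 (SD 0.39, adjusted p = 0.890 from limma). The 2 probes therefore disagreed: probe 4946 was below probe 17054 on 12 of 12 arrays, by -1.15 on average (SD 0.75, exact sign-flip permutation test, two-sided p = 0.000488, the smallest that 12 arrays can give, adjusted p = 0.00537 over 11 such comparisons).

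*Col2a1*, the partner of *Col11a1* in cartilage fibrils, had the next lowest mean. Probe 19783 had log2 ratios of -1.51, -0.91, -2.28, -0.86, -0.44, -0.72, -1.01, -1.34, -1.33, -1.03, 0.27 and 0.20 on replicates 1 to 12. The first 10 arrays were all below 0 and replicates 11 and 12 were above it. The mean was -0.91 (SD 0.71, n = 12, 95% confidence interval -1.33 to -0.49), or 53.1% of wild type (adjusted p = 0.0399 from limma, 0.214 with presumed pairs averaged). Probe 4411 had values of -1.12 to 0.41 (median -0.48), a mean of -0.39 (SD 0.45), 10 of 12 arrays below 0 and an adjusted p of 0.232 from limma. The difference of 19783 minus 4411, -0.52 (SD 0.66, below 0 on 10 of 12 arrays), did not pass (exact sign-flip permutation test, adjusted p = 0.0645).

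*Col3a1*, with a single probe, 19513, fell. Its log2 ratios on replicates 1 to 12 were 0.03, -0.90, -0.14, -0.55, -0.30, -0.90, 0.03, -1.07, -0.55, -1.05, 0.08 and -0.76. Arrays with the del/del RNA in Cy3 were the low ones and did not overlap those with it in Cy5: the means were -0.06 ± 0.16 in Cy5 and -0.83 ± 0.19 in Cy3 (SD, n = 5 each). The overall mean was -0.51 (SD 0.43, 95% confidence interval -0.67 to -0.34), or 70.4% of wild type, with an adjusted p of 0.00361 from limma with the dye term and 0.0916 without it. It was the single fibrillar collagen probe with a dye term past an adjusted p of 0.05 (adjusted p = 0.0197 from limma), a level that 12.2% of all probes reached. When consecutive replicates, which are presumed to be dye swaps of 1 yolk sac, were averaged, all 6 pairs lay below 0.

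For type V collagen, 2 of 3 *Col5a1* probes and 1 of 2 *Col5a2* probes fell. *Col5a1* probe 3715 had values of -1.19 to 0.33 (median -0.60), of which 11 of 12 were below 0, and a mean of -0.53 (SD 0.39, adjusted p = 0.0388 from limma, 0.197 with presumed pairs averaged). *Col5a1* probe 4560 had values of -1.16 to 0.43 (median -0.40), also below 0 on 11 of 12 arrays, and a mean of -0.50 (SD 0.45, adjusted p = 0.0238 from limma, 0.0735 with presumed pairs averaged). This probe was low where del/del was in Cy3 (mean -0.79 ± 0.27) and near 0 where it was in Cy5 (-0.12 ± 0.31, SD, n = 5 each), and without the dye term its adjusted p was 0.120 from limma. *Col5a2* probe 3258 was below 0 on 12 of 12 arrays, with values of -1.22 to -0.01 (median -0.45) and a mean of -0.48 (SD 0.36, adjusted p = 0.0377 from limma, 0.201 with presumed pairs averaged). Only 2 of the 16 fibrillar collagen probes, this one and *Col11a1* probe 4946, were below 0 on every array, as were 0.79% of all probes.

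The other probe of each type V gene was far more scattered. *Col5a1* probe 3690 ranged from -2.06 to 1.76 (median -0.06, 11 arrays, mean -0.18, SD 1.04, adjusted p = 0.858 from limma). *Col5a2* probe 3991 ranged from -2.46 to 5.41 (median -0.89, mean -0.14, SD 2.06, adjusted p = 0.932 from limma), and its mean was -1.46 ± 0.62 with del/del in Cy5 and 1.20 ± 2.53 in Cy3 (SD, n = 5 each). Their means are thus given without a direction.

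For type I collagen, *Col1a1* probe 4894 fell. It had values of -0.79 to 0.10 (median -0.43), of which 11 of 12 were below 0 and replicate 12 was the exception, and a mean of -0.43 (SD 0.28, n = 12, 95% confidence interval -0.62 to -0.24), or 74.2% of wild type (adjusted p = 0.0292 from limma, 0.195 with presumed pairs averaged). *Col1a1* probe 4863 ranged from -1.11 to 0.76 and averaged -0.20 (SD 0.52, 9 of 12 arrays below 0, adjusted p = 0.655 from limma).

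The 4 probes of *Col1a2* did not pass, and 3 of them were below 0 on 11 of 12 arrays each. Probe 3162 ranged from -1.14 to 0.96 and averaged -0.49 (SD 0.54, adjusted p = 0.141 from limma), with its high value on replicate 11. Probe 18436 ranged from -1.08 to 0.61 and averaged -0.50 (SD 0.42, adjusted p = 0.0688 from limma), and probe 19601 ranged from -0.95 to 0.71 and averaged -0.33 (SD 0.41, adjusted p = 0.239 from limma), both with the high value on replicate 12. The fourth probe, 19514, stood apart, with values of -0.75 to 0.66 and a mean of 0.05 (SD 0.38, adjusted p = 0.854 from limma). It lay above the mean of the other 3 probes by 0.49 (SD 0.37, above on 11 of 12 arrays, exact sign-flip permutation test, two-sided p = 0.00195, adjusted p = 0.0107). Of the 11 comparisons of a probe with the other probes of its gene, this one and that of *Col11a1* passed, and neither did with presumed pairs averaged, where 6 values allow no p below 0.0312.

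**Figure D2:**
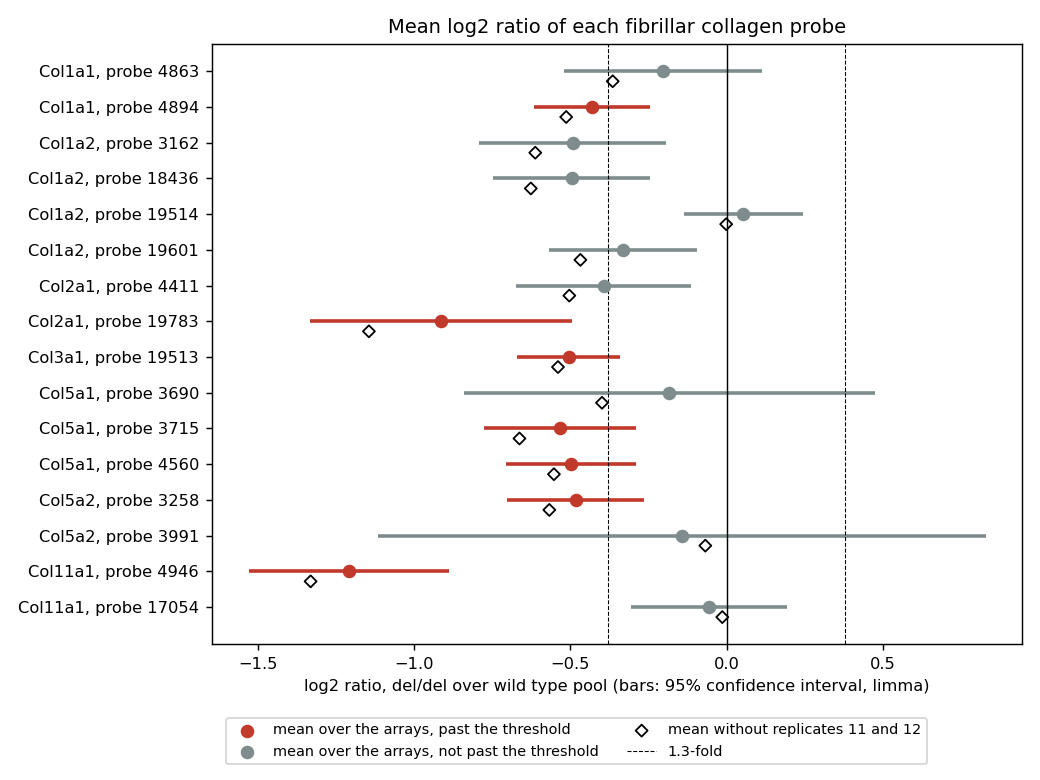
Mean log2 ratio of del/del over the wild type pool for each fibrillar collagen probe, with its 95% confidence interval from limma. Red points passed the threshold, dashed lines mark 1.3-fold, and open diamonds give the mean without replicates 11 and 12. The 7 red points run from -1.21 to -0.43, and leaving out the 2 arrays lowered the means of all probes but *Col5a2* 3991 and *Col11a1* 17054.

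Partner chains of 1 collagen type or fibril were compared on each array by the mean over the probes of each gene. *Col1a1* and *Col1a2* both averaged -0.32, a difference of -0.00 (SD 0.21, 95% confidence interval -0.13 to 0.13). The mean of *Col1a2* includes probe 19514 (0.05), which stood apart. *Col2a1* averaged -0.65 and *Col11a1* -0.63, a difference of -0.02 (SD 0.56, interval -0.37 to 0.33). The mean of *Col11a1* combines probes 4946 (-1.21) and 17054 (-0.06), which disagreed, and that of *Col2a1* probes 19783 (-0.91) and 4411 (-0.39). The near-equal means therefore do not show that the 2 genes fell equally. *Col5a1* averaged -0.42 and *Col5a2* -0.31, a difference of -0.11 (SD 1.26, interval -0.91 to 0.69). No difference passed (exact two-sided sign-flip permutation test, n = 12 arrays each, adjusted p = 0.995 for all 3), and the type V interval is wide enough to hold differences as large as the decreases themselves.

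**Figure D3:**
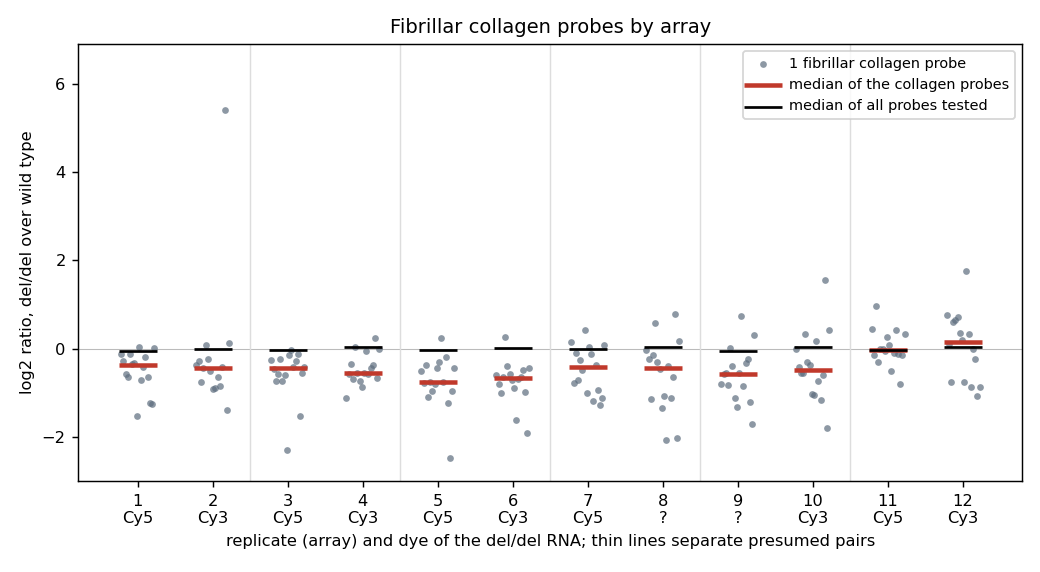
Log2 ratio of del/del over wild type of the 16 fibrillar collagen probes (grey points) on each array, with their median in red and the median of all probes tested in black. The red median lies between -0.76 and -0.38 on replicates 1 to 10, at -0.03 on replicate 11 and at 0.16 on replicate 12.

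The decrease was not even over the arrays. On replicates 1 to 10 the median of the fibrillar collagen probes lay between -0.76 and -0.38, and 12 to 16 of the probes measured on an array were below 0. On replicate 11 the median was -0.03, with 10 of 16 probes below 0, and on replicate 12 it was 0.16, with 7 of 16 below 0. The 2 arrays stand next to each other in number and would be 1 presumed pair. The source label of replicate 11 reads Prdm6 -/- yolk, and that of every other array Prdm6 -/-. The median of 14 visceral endoderm marker probes was 0.45 and 0.48 on these 2 arrays and -0.06 to 0.14 on the other 10. That of the 9 red cell marker probes was -1.09 and -1.66 there and -2.35 to -0.62 on the others, the 8 probes of parietal endoderm and decidua markers had 0.25 and 0.21 there and -0.38 to 0.01 on the others, and mesenchyme markers had -0.04 and 0.09 there and -0.20 to 0.16 on the others. Vascular smooth muscle markers (3 probes) had -0.09 and 0.50 there and -0.555 to 0.18 on the others. Endothelium markers (11 probes) had -0.01 and 0.33 there and -0.26 to 0.16 on the others. The part of these differences in the collagen values was not tested.

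Without replicates 11 and 12, a setting chosen after the values were seen, 10 of the 16 probes from all 7 genes fell, against 0.987% of all probes. The 3 additional ones were *Col1a2* probes 3162 (-0.61, adjusted p = 0.0120 from limma), 18436 (-0.63, adjusted p = 0.00400) and 19601 (-0.47, adjusted p = 0.00978). *Col2a1* probe 19783 then averaged -1.14 (adjusted p = 0.00337 from limma) and *Col11a1* probe 4946 -1.33 (adjusted p = 0.00147 from limma). The 2 probes that fell with presumed pairs averaged were *Col3a1* 19513 (adjusted p = 0.0479 from limma) and *Col11a1* 4946 (adjusted p = 0.0386 from limma). No collagen probe passed (0 of 16) within either dye orientation alone, where 1 of all probes passed in Cy5 and 44 in Cy3. The same held with the trend and robust options of limma together, where 0 of all probes passed as well. With these options the variance trend was fitted on the mean log2 ratio of each probe, not on spot intensity.

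Most of the calls were lost when a single array was left out. Leaving out any 1 of replicates 1 to 10 left 2 to 4 of the 16 probes, and leaving out replicate 11 or replicate 12 gave 8 in each case. *Col3a1* probe 19513 and *Col11a1* probe 4946 passed in all 12 of these fits. *Col5a1* probe 3715 was lost without any 1 of replicates 1 to 10, *Col2a1* probe 19783 and *Col5a2* probe 3258 when any 1 of 9 arrays was left out, *Col1a1* probe 4894 for any 1 of 8 and *Col5a1* probe 4560 for any 1 of 7. Their means kept their sign in each of these fits.

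The deviations of 11 of the 16 probes from their own means and dye terms formed 2 groups over the 12 arrays, chosen after the values were seen, which is a description over arrays that share the wild type pool and may share yolk sacs in pairs. *Col1a1* 4863 and 4894, *Col1a2* 18436, 19601 and 19514, *Col2a1* 4411 and *Col5a1* 3715 formed the first, with Pearson's r of 0.34 between *Col2a1* 4411 and *Col5a1* 3715, 0.86 between *Col1a1* 4894 and *Col5a1* 3715 and 0.90 between *Col1a2* 18436 and 19601. *Col3a1* 19513, *Col5a1* 4560, *Col1a2* 3162 and *Col11a1* 4946 formed the other, with r of 0.75 between *Col3a1* and *Col5a1* 4560 and 0.71 between *Col3a1* and *Col11a1* 4946. The probes of this second group also had the largest positive differences of the Cy5 minus the Cy3 mean, 0.52 to 0.77, the next being 0.21. Replicates 8 and 9 had a dye code of 0, so any dye effect on them stays in the deviations. The part of dye in this grouping was not tested. *Col2a1* 19783, *Col5a1* 3690, *Col5a2* 3258 and 3991 and *Col11a1* 17054 were placed in neither. The 13 pairs of probes of the same gene had a median r of 0.20 (-0.22 to 0.90), and the 107 pairs of different genes 0.26.

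**Figure D4:**
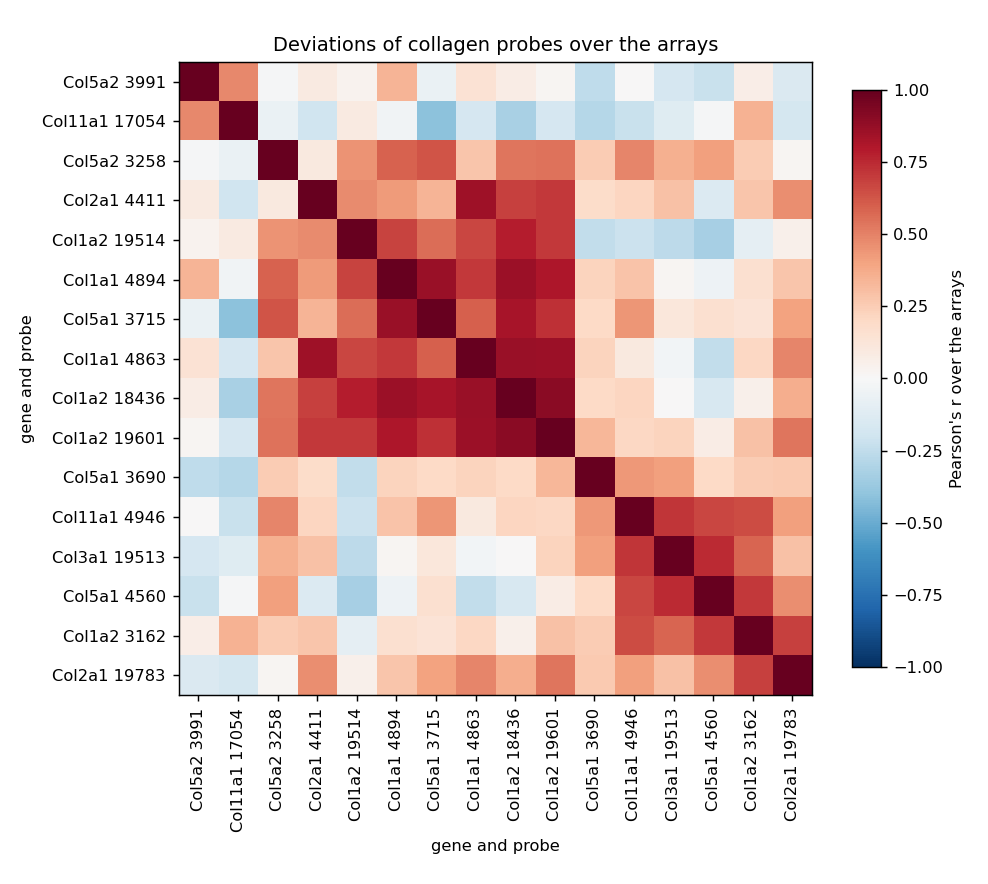
Pearson's r between the deviations of each pair of fibrillar collagen probes over the arrays, after removing the mean and dye term of each probe (dye code 0 for replicates 8 and 9). Rows and columns are probes in clustered order and colour gives r from -1 to 1. Probes of *Col1a1*, *Col1a2* and *Col5a1* form a block in the middle, and *Col3a1*, *Col5a1* 4560, *Col1a2* 3162 and *Col11a1* 4946 one at the lower right.

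Of 11440 probes of other genes with a value on every array, 23 had an r over 0.8 with the mean profile of the 7 genes over the arrays. The nearest were *Bnip3* (r = 0.95), *Rcan1* (0.90), *S100a6* (0.89), *Col9a3* probe 17696 (0.88), *Trmt10a* (0.87), *Atoh8* (0.86), *Ubl3* (0.86), *Adam22* (0.86), *N4bp2l2* (0.85) and *Sparc* probe 11119 (0.83). Much of this likeness lay in replicates 11 and 12: without them r was 0.84 for *Adam22* and 0.73 for *Bnip3*, but 0.31 for *Sparc* and 0.26 for *S100a6* and *Trmt10a*. The other probes of the gene had a median r of -0.38 for *Trmt10a*, -0.05 for *N4bp2l2* and 0.29 for *Ubl3*, but 0.60 for *Sparc*. For *Bnip3*, *Rcan1*, *S100a6*, *Atoh8* and *Adam22* only 1 probe each was compared. *Sparc*, a collagen-binding matrix protein, averaged -0.25 and did not pass (adjusted p = 0.177 from limma). Of the 10, *Col9a3*, a chain of the type IX collagen that decorates type II fibrils, passed, at -2.53 (SD 0.67, all 12 arrays below 0, limma adjusted p = 3.42e-05), whereas its 2 other probes averaged 0.06 and 0.09 and had a median r of -0.32.

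Among the other fibrillar collagen genes, *Col27a1* fell and 2 of 3 measured genes had no probe past the threshold. *Col27a1* probe 4196 was below 0 on 12 of 12 arrays and averaged -0.42 (SD 0.19, adjusted p = 0.00210 from limma), and probe 16247 was below 0 on 11 of 12 and averaged -0.58 (SD 0.38, adjusted p = 0.00173 from limma). *Col11a2* had 0.76 (SD 1.24, adjusted p = 0.350 from limma) and *Col5a3* 0.17 (SD 0.42, adjusted p = 0.546 from limma).

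In each of the lists of genes that make, handle or regulate fibrillar collagen, 0 or 1 genes passed the threshold. Of 19 measured genes of procollagen folding and secretion, 0 passed, with a median of -0.04 over their 26 probes, of which 2 had an unadjusted p under 0.05 and 0 of these were over 1.3-fold. The list counts at an unadjusted p carry no fold threshold, so the 1.95% of all probes given above is background only for those lower and over 1.3-fold. The share of all probes at that p alone is not given here. *Serpinh1*, the collagen chaperone, had -0.15 (adjusted p = 0.360 from limma), and *Fkbp14*, a prolyl isomerase of the endoplasmic reticulum, had -0.25 (adjusted p = 0.452). Of 12 genes of procollagen cleavage, cross-linking and fibril assembly, *Pcolce*, which enhances the removal of the C-terminal propeptide, fell by 0.60 on the log2 scale in probe 1524 (SD 0.52, 11 of 12 arrays below 0, limma adjusted p = 0.0197). Its 2 other probes had -0.26 and -0.30 and did not pass, nor did the adjusted p of 0.106 with presumed pairs averaged. The median of this list was -0.14, and 8 of its 25 probes had an unadjusted p under 0.05, all of them below 0 and 2 of them over 1.3-fold: the 3 of *Pcolce*, 2 of *Sparc* and 1 each of *Fn1*, *Loxl3* and *Lox*. *Lox*, the enzyme that starts the cross-linking of collagen, had -0.46 in this probe (SD 0.66, 10 of 12 arrays below 0, limma adjusted p = 0.362).

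Of 14 genes of collagen breakdown and uptake, *Mmp2*, a gelatinase that degrades denatured and basement membrane collagens, fell by 0.47 (SD 0.20, all 12 arrays below 0, limma adjusted p = 0.00162). The list median was -0.04, with 2 of 23 probes at an unadjusted p under 0.05, 1 of them over 1.3-fold. *Mmp2* is a gene that the study names from these arrays. Of 5 collagen receptor genes 0 passed, and 0 of their 10 probes had an unadjusted p under 0.05. *Itgb1*, the common chain of the collagen-binding integrins, had -0.12 in the probe with its smallest p (adjusted p = 0.453 from limma) and -0.37 to 0.17 in its others. *Cd44* had -0.48 (adjusted p = 0.547 from limma). Of 22 regulators of collagen transcription, *Tgfb3*, a ligand of the TGF-beta family that stimulates collagen synthesis in fibroblasts, rose by 0.45 (SD 0.25, higher on 12 of 12 arrays, adjusted p = 0.0106 from limma, but 0.113 with presumed pairs averaged). The list median was -0.05, with 3 of 35 probes at an unadjusted p under 0.05, 1 of them over 1.3-fold. In all, 4 of 75 measured genes of the 6 lists, the other fibrillar collagens included, passed, with 5 of 123 probes (4.07%). Of all probes, 1.07% passed in either direction. Among these 5 probes, 2 were of the fibrillar collagen *Col27a1* and 1, of *Tgfb3*, was higher.

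**Figure D5:**
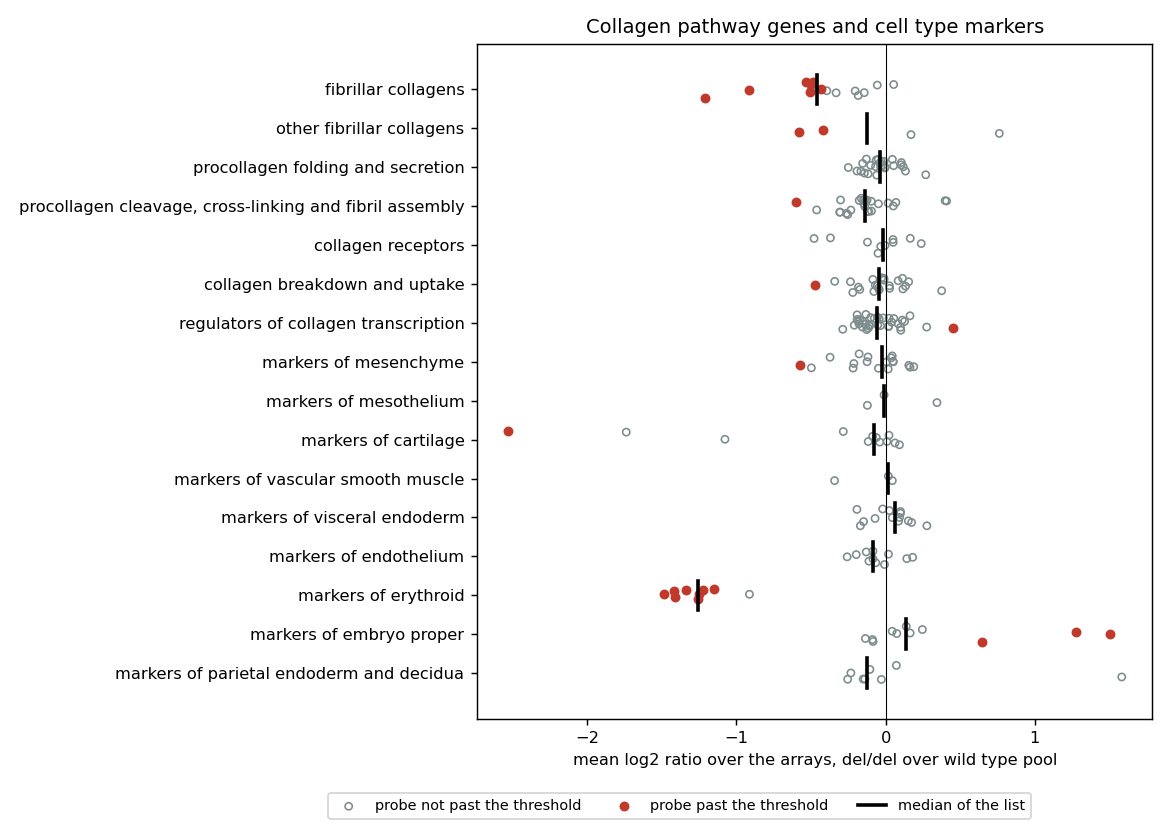
Mean log2 ratio of del/del over the wild type pool for every probe (circles) of the fibrillar collagens, of 6 lists of related genes and of 9 lists of cell type markers, with the median of each list as a black bar. Filled circles passed the threshold. The fibrillar collagens have a median of -0.46 and the red cell markers of -1.26, and the medians of the other lists lie between -0.14 and 0.14.

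Marker genes of cell types that make fibrillar collagen had list medians near 0, over members on both sides of 0. Of 10 measured mesenchyme genes, *Dcn*, a proteoglycan that coats collagen fibrils, fell by 0.57 (SD 0.32, all 12 arrays below 0, limma adjusted p = 0.00367), and the median was -0.02. Of the 18 mesenchyme probes 5 had an unadjusted p under 0.05, all below 0 and 2 of them over 1.3-fold: besides *Dcn*, these were *Twist2* (-0.50, 10 of 11 arrays below 0), *Pdgfrb* (-0.37, 11 of 12), *Postn* (-0.22, 11 of 12) and *Fn1* (-0.18, 10 of 12), with limma adjusted p-values of 0.0794 to 0.292. At that p and over 1.3-fold, 1.95% of all probes were lower, and the share at that p alone is not given here. Only 9 of the 18 means lay below 0. *Prrx1* (0.19), *Twist1* (0.16), *Vim* (0.16 and 0.04) and *Thy1* (0.05 and 0.01) lay above it, and the other *Fn1* probes had -0.12 to 0.05. Of 7 cartilage genes, *Col9a3* fell in 1 of 3 probes and *Col9a2*, another type IX chain, had -1.08 (SD 0.94, 10 of 12 arrays below 0, adjusted p = 0.0646 from limma), while the regulator *Sox9* had -0.12 and 0.02 and the proteoglycan *Acan* -0.09 and -0.28 in their 2 probes each, and the median was -0.07. Vascular smooth muscle (0 of 2 genes, median 0.02), mesothelium (0 of 3, median -0.01), endothelium (0 of 7, median -0.08), visceral endoderm (0 of 8, median 0.07) and the list of parietal endoderm and decidua (0 of 4, median -0.12) had no gene past the threshold.

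Red cell markers and 3 genes of the embryo list also passed the threshold. All 4 measured red cell genes fell, with a median of -1.26 and array medians of -2.35 to -0.62. Of 9 genes of the embryo proper, the cardiac muscle genes *Tnnt2* (1.503), *Myl7* (1.28) and *Myl4* (0.64) rose, the other 6 did not pass, and the median was 0.14. Between the deviations of 15 collagen probes over the arrays and the mean profile of 7 globin probes, Pearson's r was -0.45 to 0.49. The part of these cell types in the mean collagen ratios was not tested. The arrays give ratios in whole tissue, so fewer collagen-producing cells and less collagen RNA per cell cannot be told apart, and the presence of each marker in the tissue was not checked.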

How the data were processed

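The authors deposited 1 normalized log2 ratio per probe and array. How they normalized and scaled these values, the scanner and the image software are not given in the sources used here. The labels describe RNeasy Midi kits and indirect labelling of total RNA, whereas the published methods describe RNeasy Mini kits and an amplification step. Between 20011 and 20501 probes had a value on an array and array medians lay between -0.06 and 0.05. No spot intensities were analysed here, signal over background is therefore unknown, and precision is limited by the number of arrays.

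The mean of each probe measured on 8 or more arrays was tested against 0 by limma 3.58.1 (lmFit, eBayes; R 4.3.3), with a dye code of 1 for del/del in Cy5, -1 for Cy3 and 0 for replicates 8 and 9, and p-values were adjusted over all 20516 probes. Ratios were used as deposited. The fold threshold and the adjusted p follow the published methods, whose further rule of reproducible regulation has no definition and was not applied. The fit was tested on simulated data first. Probes and partner genes were compared by exact sign-flip permutation with SciPy 1.17.1 under Python 3.11.15.

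The wild type pool is 1 control, so the spread between wild type yolk sacs is left out. The labels do not tie arrays to yolk sacs, the 12 arrays entered singly, and p-values are therefore too small. Arrays of opposite dye orientation had a median Pearson's r of -0.08 (-0.26 to 0.06) over all probes and arrays of the same orientation 0.18. Array annotation gave 1 gene symbol for 12771 probes and none for 8023.

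The collagen genes and the gene lists were chosen with earlier results of these data known. Named are every probe of the 7 genes, in each pathway list every gene past the threshold or otherwise the 2 with the smallest adjusted p, and the 10 probes most like the collagen profile; further genes of the marker lists and further probes were named after their values were seen. *Prdm6* itself was not analysed here.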

Additional observations from a re-analysis of the deposited data

How the results depend on the processing

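Of the 16 fibrillar collagen probes, 7 passed in the reported setting. The count was 2 with the 10 arrays of unambiguous dyes, 2 at 1.5-fold, 2 with presumed pairs averaged, 4 with these pairs averaged but without replicates 11 and 12 (chosen after the data were seen), 2 to 8 with 1 array left out, and 0 with del/del in Cy5 alone, in Cy3 alone, with the trend and robust options together, or with arrays turned by dye. In these settings the count over all probes, 220, was 169 with the 10 arrays, 1 in Cy5 alone, 44 in Cy3 alone, 0 with trend and robust, 132 at 1.5-fold, 113 with pairs averaged, 56 with pairs averaged without replicates 11 and 12, 1745 with arrays turned, and 165 to 214 with 1 array left out. The count of pathway genes, 4, was 4 with the 10 arrays, 0 in Cy5 alone, 1 in Cy3 alone, 0 with trend and robust, 1 at 1.5-fold, 2 with pairs averaged, 0 with pairs averaged without replicates 11 and 12, 7 with arrays turned, and 3 to 4 with 1 array left out. With trend and robust together each of the 7 collagen probes had an adjusted p of 0.390 from limma. The variance trend was fitted there on the mean log2 ratio of each probe, which is the quantity tested, rather than on spot intensity. The trend option alone, fitted in the same way, left 7 probes. The cause of the loss with both options was not tested. At an unadjusted p under 0.05 and over 1.3-fold, 8 of the 16 collagen probes (6.59% of all probes) were lower in Cy5 alone, 7 (8.23%) in Cy3 alone, 10 (1.82%) with trend and robust, and 1 (4.56%) with arrays turned.

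Turning the Cy3 arrays, as for ratios of Cy5 over Cy3, a reading in which the means do not give the heat plot's ratios, put means above 0 for *Col1a1* 4863 (0.0236), *Col1a2* 3162 (0.27), *Col3a1* (0.36), *Col5a1* 3690 (0.14), *Col5a1* 4560 (0.35), *Col11a1* 4946 (0.26) and *Col11a1* 17054 (0.0393), and below 0 for *Col1a2* 19514 (-0.28). Other sign changes were in probes that did not pass: *Col1a2* 19514 in Cy5 alone (-0.27) and without replicates 11 and 12 with arrays single or paired (-0.0011), *Col5a1* 3690 (0.071) and *Col5a2* 3991 (1.20) in Cy3 alone, and, with 1 array left out, *Col5a1* 3690 (-0.42 to 0.0216), *Col5a2* 3991 (-0.57 to 0.0781) and *Col11a1* 17054 (-0.11 to 0.0232).

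The count of probes that differed from others of their gene, 2, was 0 with pairs averaged, 4 without replicates 11 and 12, and 2 to 3 with 1 array left out. With the 10 unambiguous arrays *Col1a1* minus *Col1a2* was 0.0128 and *Col2a1* minus *Col11a1* 0.0257. With 1 array left out *Col1a1* minus *Col1a2* was -0.0202 to 0.0409, *Col5a1* minus *Col5a2* -0.27 to 0.17, and *Col2a1* minus *Col11a1* -0.14 to 0.0644.

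No paired analysis was possible because all arrays belong to 1 group with its control in the other channel. Consecutive arrays as a random block, with a consensus correlation of 0.04, left 7 probes.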
